A study of Mus musculus with 20 samples.

Results

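The livers of 4 mice given the hybrid, in which glucagon and T3 are linked in 1 molecule, were compared with the livers of 4 control mice across all genes. These are 8 of the 20 RNA-seq libraries of the study, and 12575 of the 13319 gene symbols counted in them passed a filter on low counts and were tested. Every library was made from the liver of 1 male mouse that ate a western diet and was treated each day for 16 days, so the mice are the replicates. The hybrid libraries carry the treatment code Cp, which was taken to be the hybrid because the 4 other codes stand for the controls, either hormone alone and both hormones together. The sources used here do not give the control treatment, the doses, the strain, the age of the mice or the hour of collection. The other groups, also of 4 mice each on the same diet and schedule, received glucagon alone, T3 alone, or both hormones as separate molecules (the combination), and serve here to place the hybrid.

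Glucagon is the fasting hormone of the pancreas. It binds the receptor Gcgr on hepatocytes, raises cyclic AMP (cAMP) and activates protein kinase A and the transcription factor CREB, which drive glucose output and the breakdown of amino acids. T3 (triiodothyronine) is the active thyroid hormone and acts in the nucleus, in hepatocytes mostly through the receptor Thrb. In liver it is known for lowering circulating cholesterol and for raising mitochondrial oxidation and lipid turnover. A molecule that holds both is meant to bring T3 to cells that carry the glucagon receptor.

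Total counts ran from 11562213 to 23195658 per control library and from 8791923 to 17445035 per hybrid library. Levels are given as CPM, which are counts per 1000000 counts after scaling for library composition, with the 4 libraries of a group in the order of their replicate numbers or as mean ± SD (n = 4). The control livers varied more among themselves than the hybrid livers: the biological coefficient of variation, the typical relative spread of a gene between mice, was 38.5% in control and 20.7% in hybrid. It was still 36.9% among the controls when control 2 was left out. Control 2 stood apart, with a summed level of 3797 CPM over 27 interferon response genes, against 583 to 808 CPM in the other controls and 1137 to 1765 CPM in hybrid livers. It also held 1254 CPM over 26 skeletal muscle genes, and hybrid 4 held 807 CPM, while the 6 other control and hybrid libraries held 69.3 to 131 CPM. In groups compared further below, glucagon 3 held 4556 CPM over these muscle genes, against 67.6 to 149 CPM in the other glucagon livers. Combination 4 held 497 CPM, against 62.4 to 75.8 CPM in the other combination livers. The labels put replicate 1, 2, 3 and 4 of both groups in sequencing lanes 1, 2, 3 and 4.

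Of the 12575 genes, 600 were higher in hybrid than in control livers (4.77%) and 608 were lower (4.83%), which is 9.61% in either direction. A gene was called where the quasi-likelihood test of edgeR gave a Benjamini-Hochberg adjusted p, over all tested genes, below 0.05. At an unadjusted p below 0.05, 12.2% were higher and 13.6% lower. Changes are given as log2 of hybrid over control ± SE from that fit. The change exceeded 2-fold for 449 of the higher and 469 of the lower genes, and 8-fold for 68 and 46. The 4 hybrid libraries did not overlap the 4 control libraries in 572 of the 600 higher genes and 564 of the 608 lower genes; over all tested genes 9.25% lay apart on the higher side and 8.6% on the lower side. The median change of all tested genes was -0.02. Without control 2 the test called 849 higher (6.75%) and 1007 lower genes (8%; 14.7% in either direction), among them 522 of the 600 and 592 of the 608, and without both control 2 and hybrid 4 it called 560 and 584 (4.48% and 4.67%; 9.15% in either direction). DESeq2 in place of edgeR called 874 higher (6.95%) and 1095 lower genes (8.71%; 15.7% in either direction). Leaving out control 4 gave 713 calls in all, and leaving out hybrid 1, 2, 3 or 4 gave 702, 624, 516 and 605. Where leaving out 1 library ended the call of a gene named below, its adjusted p without that library follows after the word or. Where it moved the count of a gene list by more than 1.5 times, the lowest and highest counts are given. Each list count of the edgeR test on all 8 libraries is to be read beside the 4.77% of all genes that rose and the 4.83% that fell. A list count of another fit is to be read beside all calls of that fit, since it can move with them. Besides the numbers above, these were 1335 without control 1, 1245 without control 3 and 1423 with lane as a block. The lists were written with earlier results of these data known.

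**Figure D1:**
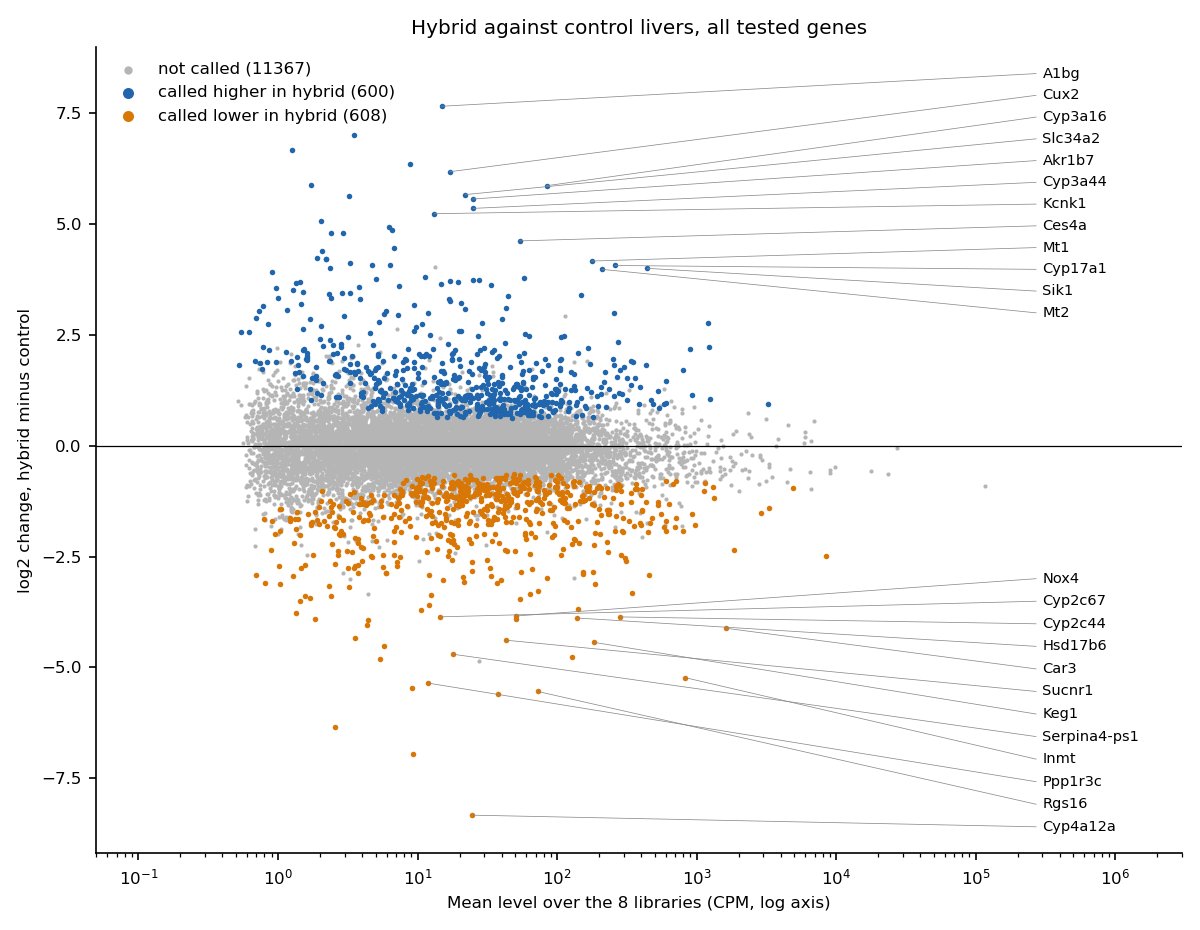
Log2 change of hybrid against control livers (vertical axis) by mean level over the 8 libraries in CPM (horizontal log axis) for the 12575 tested genes; blue points are the 600 genes called higher, orange points the 608 called lower and grey points the rest. The named genes at the top and bottom are those with the highest and lowest changes among called genes of at least 20 CPM whose libraries did not overlap; Cyp4a12a lies lowest at -8.34 and A1bg highest at 7.66.

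Among well-expressed genes, the largest rises included several genes that are known to be higher in female than in male mouse liver. Cyp17a1, a steroid-making P450 enzyme, measured 32.5, 38.01, 12.2 and 34.4 CPM in control livers and 751, 443, 472 and 288 CPM in hybrid livers, a 16.8-fold rise (log2 change 4.07 ± 0.42, adjusted p = 0.000364). The genes of this ranking were taken only where hybrid and control livers did not overlap, so their separation is no added evidence. Cux2, a transcription repressor of female liver, measured 0.535, 0.479, 0.588 and 0.226 CPM in control livers and 74.8, 25.1, 30.1 and 4.01 CPM in hybrid livers (log2 change 6.18 ± 0.81, adjusted p = 0.00138). Its hybrid values spread widely, with hybrid 4 lowest at 4.01 CPM, still above every control. The P450 gene Cyp3a16 repeated that order with 308, 137, 212 and 7.47 CPM in hybrid livers against 2.94, 2.01, 2.45 and 4.07 CPM in the controls (log2 change 5.87 ± 0.89, adjusted p = 0.00267). Its neighbour Cyp3a44 gave 1.23 ± 0.852 CPM in control and 49.04 ± 30.98 CPM in hybrid (log2 change 5.36 ± 0.67, adjusted p = 0.00121). These Cyp3a genes are close copies, and how reads shared between copies were counted is not given in the sources used here. A1bg, a plasma glycoprotein, had 2, 5, 0 and 2 counts in the controls and 1476, 371, 141 and 53 in the hybrid livers. The ratio of its mean CPM was 238, with an exact 95% interval from 125 to 521 that covers counting error only.

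Further genes at the top of the ranking have other roles. Slc34a2, a sodium-phosphate carrier, measured 0.642, 1.01, 0.294 and 1.36 CPM in control livers and 22.01, 46.1, 56.97 and 47.2 CPM in hybrid livers (log2 change 5.67 ± 0.44, adjusted p = 0.000229). Akr1b7, an aldehyde reductase, rose 47.5-fold from 0.971 ± 0.825 CPM to 48.8 ± 17.6 CPM (log2 change 5.57 ± 0.53, adjusted p = 0.000229). Both were clear of every control in all 4 hybrid livers, which the ranking required of every gene in it. The metallothioneins, small proteins that bind zinc and copper, rose together. Mt1 measured 3.26, 41.3, 6.37 and 22.8 CPM in control livers and 279, 631, 162 and 266 CPM in hybrid livers (log2 change 4.17 ± 0.77, adjusted p = 0.00716). Mt2 went from 24.8 ± 26.6 to 396 ± 219 CPM (log2 change 3.98 ± 0.87, adjusted p = 0.0169). The controls were uneven, with controls 2 and 4 above controls 1 and 3 for Mt1. The lowest hybrid value lay above the highest control value, as the ranking required. Kcnk1, a potassium channel, reached 1.14, 24.5, 15.8 and 61.3 CPM in hybrid livers from 0.673 ± 0.279 CPM in control (log2 change 5.24 ± 0.96, adjusted p = 0.00703). Ces4a, a carboxylesterase, reached 13.2, 85.1, 69.5 and 245 CPM from 4.34 ± 3.57 CPM (log2 change 4.62 ± 0.91, adjusted p = 0.0105). For both, hybrid 1 was the lowest and hybrid 4 the highest of the group.

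The deepest fall was that of Cyp4a12a, the fatty acid hydroxylase of male mouse liver. It measured 77.3, 20.8, 70.8 and 26.3 CPM in the control livers and had only 1, 2, 1 and 4 counts in the hybrid livers. Its mean CPM was 311 times higher in control, with an exact 95% interval from 157 to 720 for counting error only. Rgs16, which shortens signalling through G proteins, measured 82.1, 26.4, 102 and 359 CPM in control livers and 8.23, 0.768, 0.995 and 1.68 CPM in hybrid livers (log2 change -5.55 ± 0.97, adjusted p = 0.00583). Control 4 was the highest control and hybrid 1 the highest hybrid. The groups did not overlap, which was a condition of the ranking here too. Ppp1r3c, which brings a phosphatase to glycogen, fell 41.0-fold to 0.599, 0.439, 0.723 and 0.467 CPM (log2 change -5.36 ± 0.48, adjusted p = 0.000229). Inmt, an indole N-methyltransferase, measured 2424, 316, 1702 and 2004 CPM in control livers and 40.8, 28.4, 49.9 and 49.5 CPM in hybrid livers, a 37.6-fold fall (log2 change -5.23 ± 0.57, adjusted p = 0.000507). Control 2 was the lowest control for Cyp4a12a, Rgs16, Ppp1r3c and Inmt. Sucnr1, the succinate receptor, fell 20.9-fold (log2 change -4.39 ± 0.70, adjusted p = 0.00366). Nox4, an oxidase that makes hydrogen peroxide, fell 14.3-fold (log2 change -3.84 ± 0.50, adjusted p = 0.00138). The P450 enzymes Cyp2c44 and Cyp2c67 fell 14.5-fold each (log2 change -3.86 ± 0.33, adjusted p = 0.000229, and log2 change -3.86 ± 0.37, adjusted p = 0.000229). Keg1, Hsd17b6 and Car3, all known as genes of male liver, fell 21.7-fold, 14.8-fold and 17.4-fold, to 16.1 ± 5.51, 17.3 ± 18.9 and 173 ± 107 CPM. Serpina4-ps1, an expressed pseudogene, went from 34.3 ± 31.95 to 1.38 ± 2.13 CPM (log2 change -4.70 ± 0.997, adjusted p = 0.0151, or 0.0517 to 0.0553 without hybrid 2 or 3).

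On the glucagon side, the first question was whether targets of cAMP and CREB were raised. Of 23 such early targets tested, 5 rose and 0 fell (edgeR, with 3 lower at an unadjusted p under 0.05 and 3 by DESeq2), and their median log2 change was -0.001 beside -0.02 over all genes. The 5 that rose were Sik1, Nr4a3, Pde10a, Nr4a2 and Ppargc1a. Sik1 (chr17:31844250-31855804, minus strand, GRCm38) encodes a kinase that is made in response to CREB and restrains the coactivators of CREB. It measured 39.4, 80.9, 59.1 and 29.3 CPM in control livers and 796, 664, 793 and 1078 CPM in hybrid livers, a 16.0-fold rise (log2 change 4.004 ± 0.36, adjusted p = 0.000229), with every hybrid liver above every control. Nr4a3 (chr4:48045153-48086447, plus strand), an orphan nuclear receptor and immediate early gene, measured 0.214, 0.623, 0.588 and 0.302 CPM in control livers and 3.81, 5.43, 5.15 and 3.17 CPM in hybrid livers (log2 change 3.34 ± 0.41, adjusted p = 0.0011). Its relative Nr4a2 (chr2:57106830-57124003, minus strand) measured 2.09, 1.63, 1.37 and 1.21 CPM in control livers and 5.23, 5.37, 7.14 and 5.41 CPM in hybrid livers (log2 change 1.87 ± 0.28, adjusted p = 0.00251). Both were apart from the controls, and both were still at a low level. Ppargc1a (chr5:51454250-51567726, minus strand), the coactivator PGC-1 alpha, measured 13.5, 11.1, 9.41 and 8.98 CPM in control livers and 18.04, 25.6, 19.5 and 18.7 CPM in hybrid livers (log2 change 0.94 ± 0.21, adjusted p = 0.0195, or 0.0601 to 0.0703 without control 4 or hybrid 2 or 3). Pde10a, a phosphodiesterase that breaks down cAMP, rose from 1.61, 12.5, 1.27 and 2.49 CPM to 28.6, 51.1, 27.1 and 49.9 CPM (log2 change 3.09 ± 0.66, adjusted p = 0.0157, or 0.0511 without control 4), with control 2 the highest control. Other early targets did not pass. Nr4a1, the third relative, measured 21.1, 21.5, 15.9 and 9.88 CPM in control livers and 6.92, 13.4, 5.52 and 7.19 CPM in hybrid livers (log2 change -1.03 ± 0.33, adjusted p = 0.0742, and 0.0347 with lane as a block). Crem, which encodes a repressor made under cAMP, measured 15.7, 15.1, 5.00 and 6.41 CPM in control livers and 25.01, 34.4, 17.7 and 18.9 CPM in hybrid livers (log2 change 1.19 ± 0.38, adjusted p = 0.0757, and 0.0114 with lane as a block). For these targets, 4 without control 4 and 8 without control 2, and 9 with lane as a block (6 higher, 3 lower) were called.

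The stretches before the start sites of 3 of these genes are shown because CREB is known to bind the palindrome TGACGTCA or its parts TGACG and CGTCA. RefSeq windows (GRCm38.p6) of 300 bases, 250 before and 50 after a start, were at hand for 4 of the 5 genes. The starts are those of RefSeq. For Nr4a3 that start lies 152 bases downstream of the GENCODE start given above, for Ppargc1a 1 base, and for Nr4a2 they are the same. Each stretch ends before the GENCODE start, so 3 of the 4 half-sites of the Nr4a3 window are shown and the other lies inside the gene as GENCODE gives it. Each stretch below runs 5′ to 3′ on the strand of its gene, and capitals mark the half-sites on either strand, which do not overlap here.
Nr4a3 (chr4:48045055-48045152, plus strand): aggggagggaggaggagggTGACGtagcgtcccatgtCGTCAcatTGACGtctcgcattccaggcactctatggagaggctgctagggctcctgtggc
Nr4a2 (chr2:57124104-57124253, minus strand): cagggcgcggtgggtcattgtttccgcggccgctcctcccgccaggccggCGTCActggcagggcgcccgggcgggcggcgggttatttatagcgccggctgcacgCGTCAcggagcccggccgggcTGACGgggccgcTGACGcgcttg
Ppargc1a (chr5:51567727-51567825, minus strand): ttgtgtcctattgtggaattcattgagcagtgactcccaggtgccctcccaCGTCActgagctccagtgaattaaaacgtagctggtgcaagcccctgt
The windows of Nr4a3 and Nr4a2 each held 4 half-sites, a number reached by 0.231% of all 32851 windows in the table, and that of Ppargc1a held 1. At least 1 half-site was present in 20.8% of all windows and the full palindrome in 1.79%. The full palindrome was in none of the windows of these 4 genes. The 2 windows of Pde10a held no half-site. Their RefSeq starts lie 276373 and 324613 bases downstream of the GENCODE start of Pde10a, so the sequence before that GENCODE start was not looked at. These letters describe the windows and were not tested against the measurements.

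Of 29 genes of the chain from glucagon receptor to protein kinase A, 2 rose and 0 fell, beside 4.77% and 4.83% of all genes. In edgeR 3 were lower at an unadjusted p under 0.05, DESeq2 called 0 lower, and the median was 0.06. Adcy1, an adenylyl cyclase, which makes cAMP, measured 0.589, 1.01, 0.490 and 0.679 CPM in control livers and 8.66, 6.64, 5.52 and 7.47 CPM in hybrid livers, a 9.99-fold rise (log2 change 3.32 ± 0.33, adjusted p = 0.000271). Pde4a, which breaks cAMP down, measured 8.03, 13.4, 17.8 and 10.9 CPM in control livers and 33.6, 21.4, 35.4 and 43.3 CPM in hybrid livers (log2 change 1.43 ± 0.29, adjusted p = 0.0132). The groups did not overlap for either. The glucagon receptor itself, Gcgr, measured 381, 198, 455 and 362 CPM in control livers and 242, 145, 225 and 245 CPM in hybrid livers (log2 change -0.68 ± 0.28, adjusted p = 0.152). All 4 hybrid livers lay below controls 1, 3 and 4 and their range held control 2. Without control 2 its fall was called (log2 change -0.90, adjusted p = 0.0293). Adcy4 and Adcy9 had log2 changes of 0.78 ± 0.27 and -0.74 ± 0.27 (adjusted p = 0.101 and 0.114). For this chain, 2 without control 1 and 4 without control 2 were called.

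**Figure D2:**
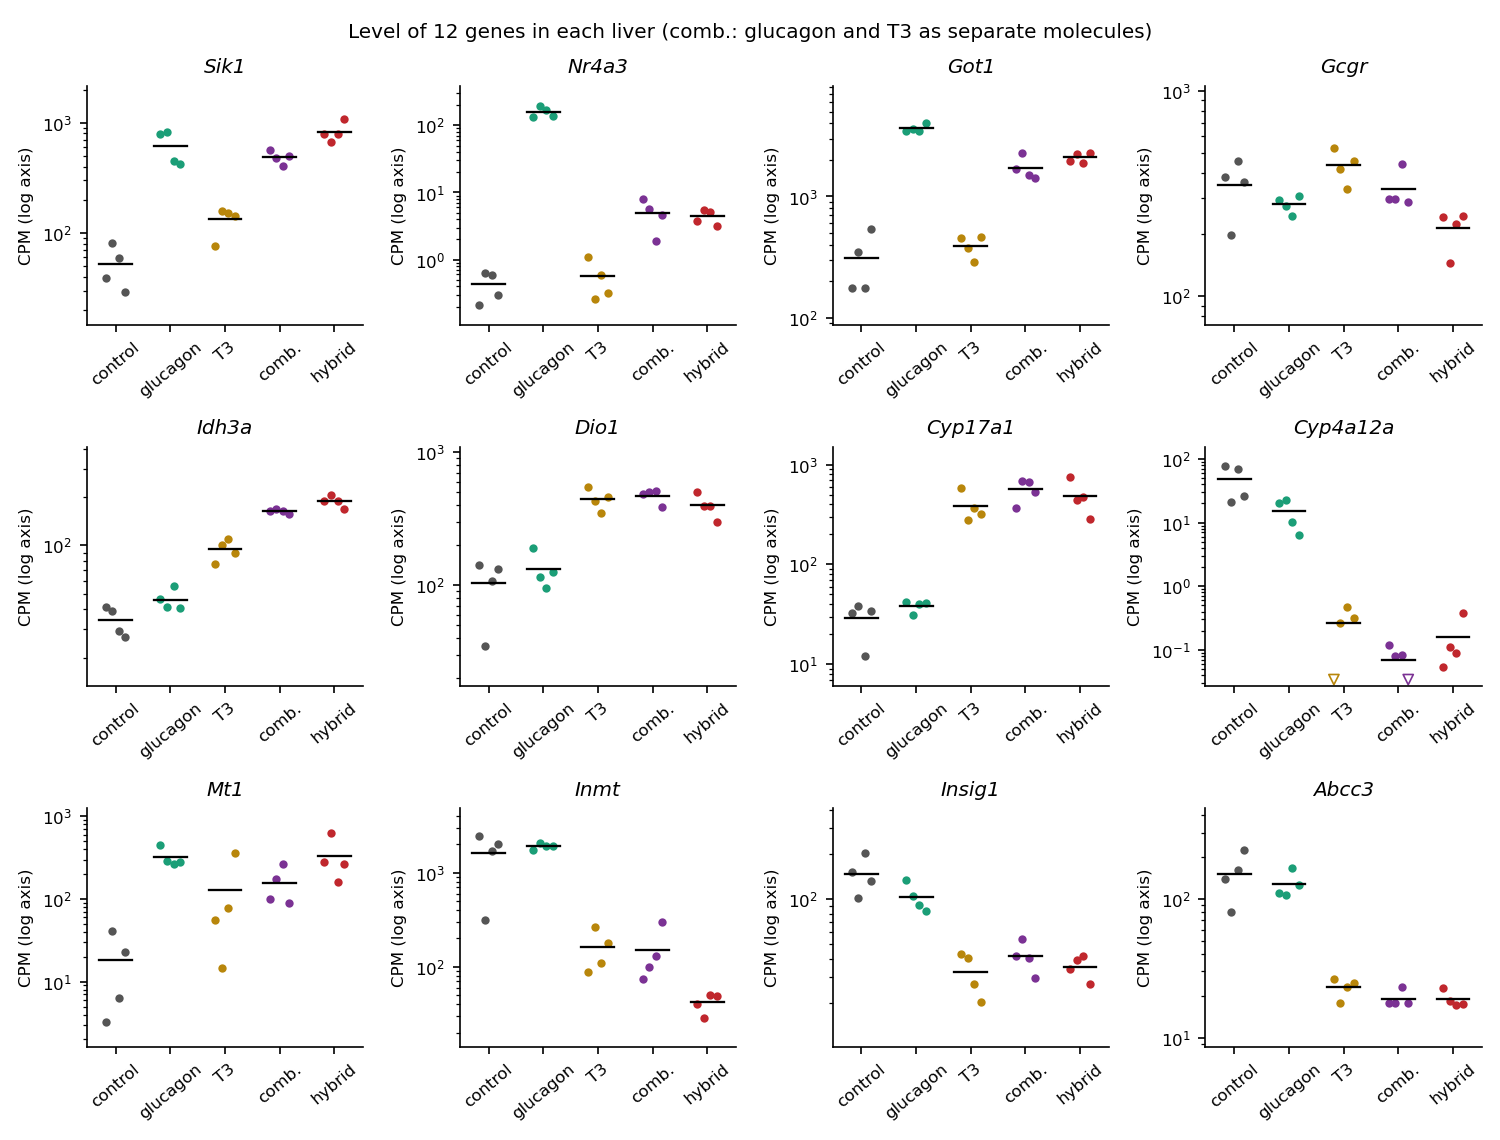
CPM (log axis) of 12 genes in each of the 20 livers, by group; points are single livers and horizontal bars are group means. Open triangles mark 1 T3 and 1 combination liver at 0 for Cyp4a12a. Hybrid livers lie clear of the controls for Sik1, Nr4a3, Got1, Idh3a, Dio1, Cyp17a1, Mt1, Inmt, Cyp4a12a, Insig1 and Abcc3, while Gcgr overlaps; T3 libraries ran in another lane.

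Some genes that make glucose rose, and some that store or take it up fell. Of 22 gluconeogenesis genes, 4 rose and 0 fell (edgeR, with 1 lower at an unadjusted p under 0.05 and 1 by DESeq2), with a median of 0.03. Got1, the cytosolic aspartate aminotransferase, measured 175, 351, 176 and 538 CPM in control livers and 1962, 2248, 1874 and 2303 CPM in hybrid livers, a 6.79-fold rise (log2 change 2.76 ± 0.38, adjusted p = 0.00177). G6pc, the glucose-6-phosphatase that releases glucose, measured 906, 428, 459 and 533 CPM in control livers and 1488, 1239, 1198 and 1144 CPM in hybrid livers (log2 change 1.14 ± 0.27, adjusted p = 0.0233, or 0.0531 to 0.0839 without control 3 or 4 or any 1 hybrid library). No hybrid liver fell into the control range for either gene. Mdh2, the mitochondrial malate dehydrogenase, rose by 0.66 on the log2 scale (adjusted p = 0.0454, or 0.0517 to 0.166 without any 1 of the 8 libraries, and 0.0646 with lane as a block). Ppargc1a, given above, was the other called member. Pck1, the classical gluconeogenic enzyme, measured 1254, 1927, 2662 and 916 CPM in control livers and 2641, 2159, 1896 and 1746 CPM in hybrid livers and overlapped fully (log2 change 0.33 ± 0.33, adjusted p = 0.575). Cebpb had a log2 change of 0.96 ± 0.31 (adjusted p = 0.0742, and 0.024 with lane as a block). For gluconeogenesis, 1 without control 4 and 5 without control 2 were called.

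Of 25 genes of glycolysis and glycogen, 1 rose and 4 fell, with a median of -0.51. Beside Ppp1r3c, the fallen genes included Slc2a2 and Gys2. Slc2a2, the glucose carrier of hepatocytes, measured 455, 149.5, 279.9 and 316 CPM in control livers and 77.8, 58.1, 86.4 and 77.9 CPM in hybrid livers (log2 change -1.98 ± 0.31, adjusted p = 0.00313). Gys2, the liver glycogen synthase, went from 219.8 ± 71.5 to 107 ± 15.4 CPM (log2 change -1.01 ± 0.25, adjusted p = 0.0305, or 0.0501 to 0.108 without control 3 or 4 or any 1 hybrid library). For both the highest hybrid liver lay below the lowest control. Pfkfb4, which sets the level of a glycolysis activator, rose from 2.60 ± 1.45 to 16.7 ± 9.01 CPM (log2 change 2.69 ± 0.52, adjusted p = 0.00976). Without control 2, 10 members were lower and 1 higher, beside 8% and 6.75% of all genes. For glycolysis and glycogen, 4 without control 4 and 11 without control 2 were called.

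Amino acid genes were among those that rose. Of 42 genes of amino acid breakdown and the urea cycle, 8 rose and 2 fell, with a median of -0.02. Slc25a15, which carries ornithine into mitochondria for the urea cycle, measured 162, 140.1, 117 and 125 CPM in control livers and 539, 483, 451 and 383 CPM in hybrid livers (log2 change 1.78 ± 0.21, adjusted p = 0.000736). Agxt, an aminotransferase of glyoxylate and alanine, measured 371, 405, 433 and 290 CPM in control livers and 846, 1059, 1532 and 1433 CPM in hybrid livers (log2 change 1.71 ± 0.26, adjusted p = 0.00267). The groups lay apart for both genes. Aass, the first enzyme of lysine breakdown, rose 2.91-fold (log2 change 1.54 ± 0.30, adjusted p = 0.01). Sdsl, a serine dehydratase-like enzyme, rose 2.85-fold (log2 change 1.51 ± 0.30, adjusted p = 0.0118). Tat, the tyrosine aminotransferase and a textbook target of glucagon, measured 2078, 1751, 1308 and 1410 CPM in control livers and 1190, 1813, 1498 and 874 CPM in hybrid livers (log2 change -0.27 ± 0.27, adjusted p = 0.579), and its groups overlapped. Without control 2 the list had 6 higher and 6 lower members, beside 6.75% and 8% of all genes. For amino acid breakdown, 5 without control 4 and 12 without control 2 were called.

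Of 23 amino acid transporters, 5 rose and 0 fell (edgeR, with 3 lower at an unadjusted p under 0.05 and 0 by DESeq2), with a median of 0.42. Slc25a22, a mitochondrial glutamate carrier, measured 173, 612, 494 and 451 CPM in control livers and 2393, 1766, 2033 and 1842 CPM in hybrid livers, a 4.66-fold rise (log2 change 2.22 ± 0.36, adjusted p = 0.00402). Slc16a10, which carries aromatic amino acids and thyroid hormones, measured 176, 84.9, 138 and 154 CPM in control livers and 361, 425, 429 and 382 CPM in hybrid livers (log2 change 1.55 ± 0.24, adjusted p = 0.00303). Slc7a5 and Slc3a2, the light and heavy chain of one transporter of large neutral amino acids, rose 3.13-fold and 2.44-fold (log2 change 1.65 ± 0.36, adjusted p = 0.0175, or 0.0546 to 0.059 without control 4 or hybrid 2 or 4, and log2 change 1.29 ± 0.31, adjusted p = 0.0254, or 0.0558 to 0.0754 without control 4 or any 1 hybrid library). These 4 genes had no hybrid liver in the control range. Slc1a5, a glutamine carrier, rose 2.92-fold (log2 change 1.55 ± 0.40, adjusted p = 0.0337, or 0.0539 to 0.104 without control 1, 3 or 4 or hybrid 2, 3 or 4), with hybrid 1 inside the control range. For the transporters, 2 without control 4 and 8 without control 2 were called.

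On the T3 side, 14 of 32 genes known to respond to thyroid hormone rose and 3 fell, beside 4.77% and 4.83% of all genes. The median of the list was 0.96, beside -0.02 over all genes. Its members were chosen with earlier results of these data known, so these numbers are not independent evidence. Idh3a, a subunit of isocitrate dehydrogenase in the citric acid cycle, measured 41.5, 39.4, 29.4 and 26.8 CPM in control livers and 189.8, 205, 189 and 169 CPM in hybrid livers, a 5.54-fold rise (log2 change 2.47 ± 0.21, adjusted p = 0.000229). Pdp2, a phosphatase that switches on pyruvate dehydrogenase, measured 24.2, 19.2, 39.7 and 26.9 CPM in control livers and 88.0, 74.4, 100.2 and 85.7 CPM in hybrid livers (log2 change 1.68 ± 0.24, adjusted p = 0.00189). Hr, a corepressor that thyroid hormone raises in several tissues, measured 0.749, 3.88, 0.784 and 3.02 CPM in control livers and 15.5, 30.7, 22.2 and 40.3 CPM in hybrid livers (log2 change 3.65 ± 0.55, adjusted p = 0.00252). In all 3 every hybrid liver was above every control. Dio1, the deiodinase that converts T4 to T3 and a standard T3 target of liver, measured 143, 34.99, 108 and 133 CPM in control livers and 507, 394, 395 and 301 CPM in hybrid livers, a 3.87-fold rise (log2 change 1.95 ± 0.38, adjusted p = 0.00989). Gpd2, the mitochondrial glycerol-phosphate dehydrogenase, rose from 42.02 ± 8.64 to 80.4 ± 13.1 CPM (log2 change 0.95 ± 0.20, adjusted p = 0.0155, or 0.0558 to 0.0632 without control 4 or hybrid 1 or 3). Other standard T3 targets did not pass. Thrsp, a regulator of lipogenesis, measured 5795, 430.2, 761 and 3076 CPM in control livers and 2397, 1285, 1929 and 1116 CPM in hybrid livers (log2 change -0.55 ± 0.66, adjusted p = 0.648; log2 change 0.23 without control 1), with controls 1 and 4 above every hybrid liver. Me1, the malic enzyme, measured 104, 34.9, 53.1 and 92.5 CPM in control livers and 166, 128, 186 and 129.7 CPM in hybrid livers (log2 change 1.12 ± 0.32, adjusted p = 0.0519, and 0.0281 with lane as a block). Klf9, a transcription factor, measured 85.1, 73.4, 125 and 76.6 CPM in control livers and 66.7, 98.9, 96.1 and 60.5 CPM in hybrid livers (log2 change -0.15 ± 0.24, adjusted p = 0.755; log2 change 0.03 without control 3).

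Of 23 genes that bind, carry, convert or receive thyroid hormone, 3 rose and 6 fell, with a median of -0.35. Serpina7, the thyroxine-binding globulin of plasma, measured 52.9, 40.9, 21.9 and 38.1 CPM in control livers and 2.07, 9.71, 2.80 and 3.36 CPM in hybrid livers, an 8.40-fold fall (log2 change -3.07 ± 0.48, adjusted p = 0.0031). Thrb, the main thyroid hormone receptor of liver, measured 41.8, 21.3, 31.5 and 27.5 CPM in control livers and 14.7, 15.2, 13.02 and 12.5 CPM in hybrid livers (log2 change -1.12 ± 0.22, adjusted p = 0.0107, or 0.0508 without hybrid 3). Thra, the other receptor gene, measured 17.2, 18.6, 19.7 and 22.5 CPM in control livers and 13.8, 10.5, 10.2 and 9.71 CPM in hybrid livers (log2 change -0.80 ± 0.20, adjusted p = 0.0307, or 0.0777 to 0.113 without control 4 or hybrid 2, 3 or 4). Every hybrid liver was below every control for all 3 genes. Sult1b1, which sulphates thyroid hormones, fell 5.18-fold (log2 change -2.37 ± 0.40, adjusted p = 0.00475). For thyroid hormone handling, 4 without hybrid 3 and 12 without control 2 were called.

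Of 22 regulators, uncoupling proteins and citric acid cycle genes, 6 rose and 0 fell (edgeR, with 0 lower at an unadjusted p under 0.05 and 0 by DESeq2), with a median of 0.73. Ppargc1b, a coactivator related to Ppargc1a, measured 14.3, 7.96, 27.6 and 15.8 CPM in control livers and 40.2, 33.1, 54.5 and 35.3 CPM in hybrid livers (log2 change 1.34 ± 0.34, adjusted p = 0.0312, or 0.0562 to 0.107 without control 1 or 4 or any 1 hybrid library). No hybrid liver lay in the control range. Of 38 respiratory chain and ATP synthase subunits, 1 rose and 0 fell, beside 4.77% and 4.83% of all genes. In edgeR 0 were lower at an unadjusted p under 0.05, DESeq2 called 0 lower, and the median was 0.02. The member that rose, Ndufa8 of complex I, went from 117 ± 17.5 to 186 ± 15.8 CPM (log2 change 0.69 ± 0.19, adjusted p = 0.0485, or 0.0531 to 0.139 without any 1 of the 8 libraries, and 0.0529 with lane as a block). Cox5b and Atp5o had log2 changes of 0.76 ± 0.25 and 0.55 ± 0.25 (adjusted p = 0.0829 and 0.191; 0.0273 for Cox5b with lane as a block). The difference between the lists was not tested. For the regulators, 1 without hybrid 3 and 7 without control 2 were called, and for the respiratory chain, 0 in all 8 fits that left out 1 library (edgeR).

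**Figure D3:**
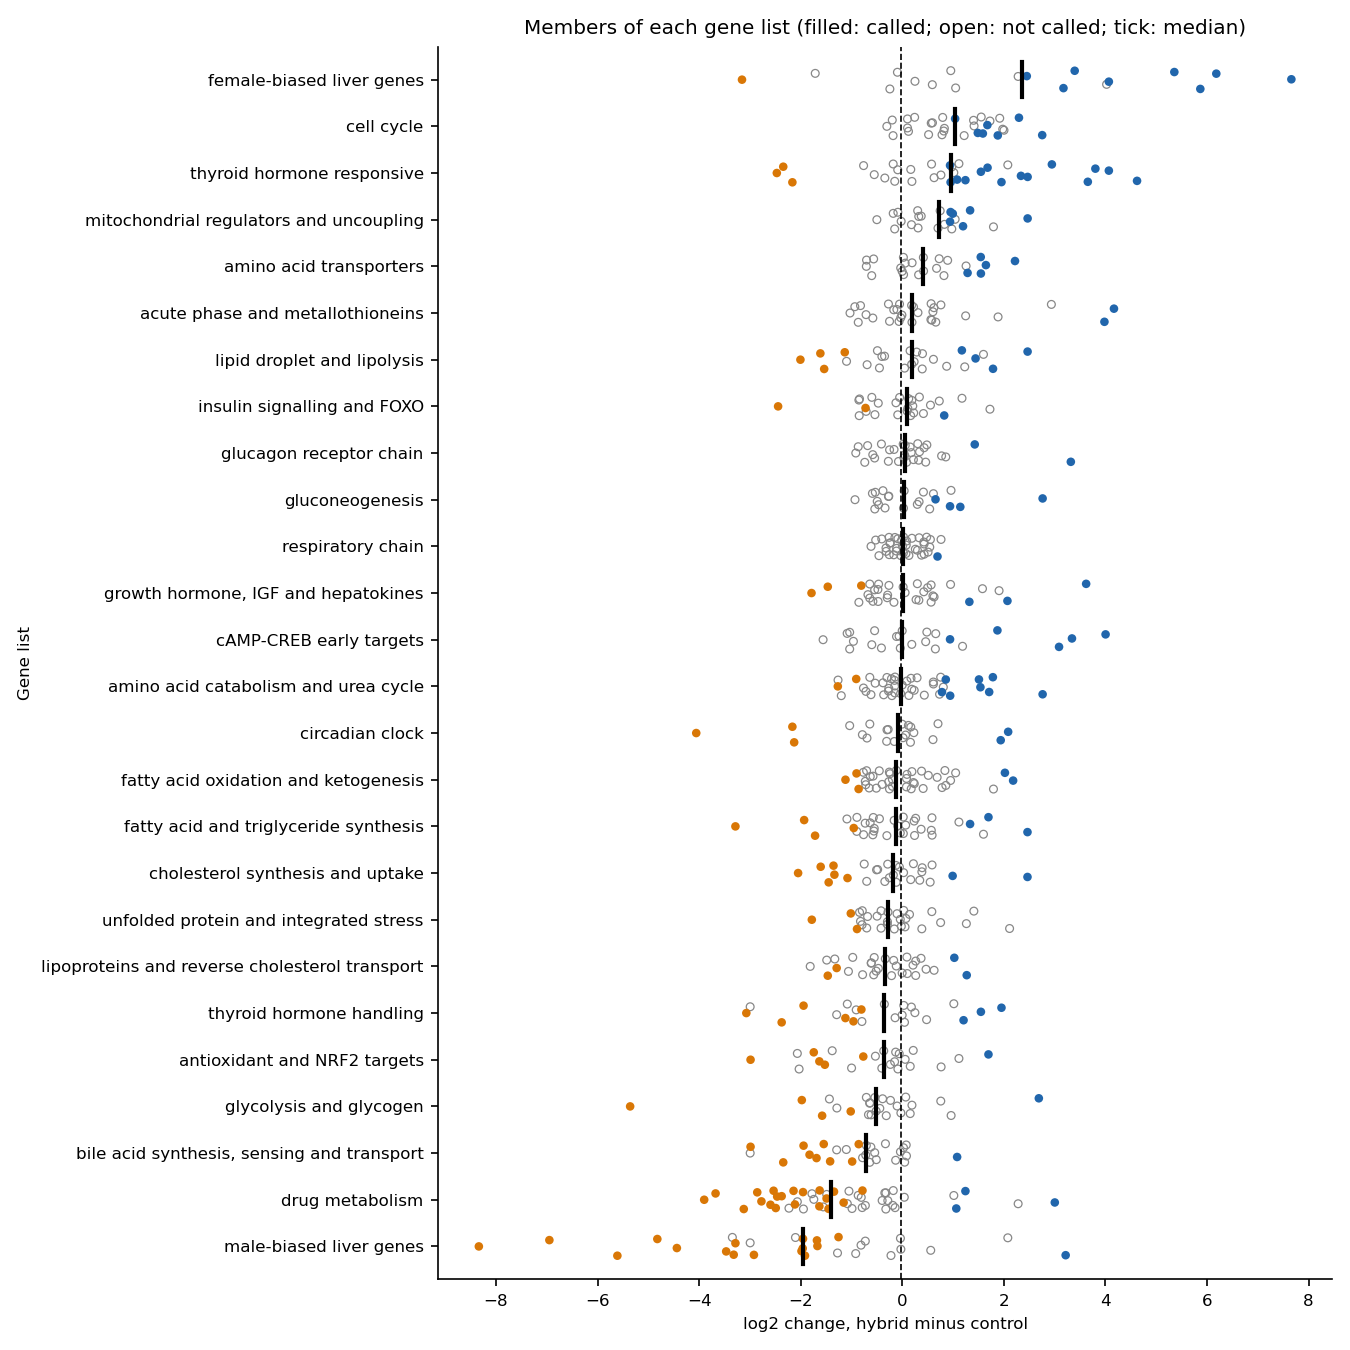
Log2 change of hybrid against control for the tested members of 26 gene lists (horizontal axis; 1 point per gene, filled where called and open where not) with the list median as a vertical tick. The dashed line is the median of all genes (-0.02); the T3-responsive list has its median at 0.96, the male-biased list at -1.95 and the female-biased list at 2.37.

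Sex-biased liver genes changed in opposite directions in these male mice. In rodents the pattern of growth hormone release sets these genes, with pulses favouring the male set and steady levels the female set. Of 29 male-biased genes, 1 rose and 16 fell, with a median of -1.95; of 18 female-biased genes, 8 rose and 1 fell, with a median of 2.37. Over all genes 4.77% rose and 4.83% fell. The female-biased list was written with 29 genes, of which 22 were measured and 18 passed the filter on low counts. Members with very few counts in control livers, such as A1bg, passed it only through the hybrid livers. Members low in both groups were dropped, so the count and median of this list can lean to the higher side. Both lists were written with earlier results of these data known, so the contrast is not independent evidence. Beside Cyp4a12a and Keg1, the male set included Hsd3b2, a steroid dehydrogenase, at 18.4, 4.12, 11.5 and 7.62 CPM in control livers and 0.381, 0.165, 0.181 and 0.747 CPM in hybrid livers (log2 change -4.82 ± 0.58, adjusted p = 0.000964), and Cyp4a12b, with 1, 3, 0 and 4 counts in the hybrid livers against 375, 310, 304 and 119 in the controls. Cyp4a12a and Cyp4a12b are close copies, so their counts may not be independent. The member that rose, Sult5a1, a sulphotransferase, went from 4.05 ± 2.22 to 36.6 ± 6.35 CPM (log2 change 3.22 ± 0.36, adjusted p = 0.000562). In the female set, beside Cyp17a1, Cux2, Cyp3a44 and A1bg, Ntrk2, a neurotrophin receptor gene, measured 19.5, 43.04, 8.52 and 31.98 CPM in control livers and 202, 359, 257 and 268 CPM in hybrid livers (log2 change 3.40 ± 0.45, adjusted p = 0.00141). Hybrid 4 had the lowest hybrid level of Cux2, Cyp3a16, Cyp3a44, Cyp17a1 and A1bg and the highest of Cyp4a12a, Cyp4a12b, Hsd3b2, Keg1 and Serpina4-ps1. The ranks of Cyp4a12a and Cyp4a12b rest on at most 4 counts per hybrid liver. Other genes did not keep this order: Ntrk2 was lowest and Hsd17b6, a gene of male liver, highest in hybrid 1. For the male set, 11 without hybrid 3 and 20 without control 2 were called.

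Of 33 genes of growth hormone, IGF and liver-secreted hormones, 3 rose and 3 fell, beside 4.77% and 4.83% of all genes, with a median of 0.02. Ghr, the growth hormone receptor, measured 2515, 722, 1419 and 1349 CPM in control livers and 459.6, 459, 405 and 389.6 CPM in hybrid livers (log2 change -1.79 ± 0.33, adjusted p = 0.00734). Stat5a, a transcription factor that relays growth hormone signals, measured 11.5, 9.25, 8.52 and 12.2 CPM in control livers and 39.2, 43.9, 43.3 and 46.6 CPM in hybrid livers, a 4.20-fold rise (log2 change 2.07 ± 0.19, adjusted p = 0.000229). Lepr, the leptin receptor, measured 8.77, 4.22, 3.33 and 4.00 CPM in control livers and 64.3, 95.5, 55.8 and 33.7 CPM in hybrid livers, a 12.3-fold rise (log2 change 3.62 ± 0.39, adjusted p = 0.000482). All 3 were apart from control in every liver. Tsku, a secreted protein, rose 2.50-fold (log2 change 1.32 ± 0.23, adjusted p = 0.00584). Igfbp3, a carrier of IGF-1, fell 1.75-fold (log2 change -0.81 ± 0.20, adjusted p = 0.0281, or 0.0656 to 0.103 without control 4 or any 1 hybrid library). Igf1 itself measured 933, 614, 718 and 585 CPM in control livers and 780.4, 1183, 779 and 1039 CPM in hybrid livers (log2 change 0.42 ± 0.24, adjusted p = 0.296). Fgf21, a fasting hormone made in liver, measured 1.02, 48.5, 6.96 and 2.79 CPM in control livers and 12.3, 25.2, 36.1 and 43.3 CPM in hybrid livers (log2 change 0.95 ± 0.91, adjusted p = 0.558), with control 2 above all hybrid livers, and rose when control 2 was left out (log2 change 3.06, adjusted p = 0.00782). Igfbp1, which insulin lowers, measured 46.9, 344, 26.6 and 30.4 CPM in control livers and 83.3, 71.6, 52.7 and 41.8 CPM in hybrid livers (log2 change -0.85 ± 0.74, adjusted p = 0.51; log2 change 0.84 without control 2), again with control 2 the highest.

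Of 26 genes of insulin signalling and FOXO targets, 1 rose and 2 fell, beside 4.77% and 4.83% of all genes, with a median of 0.10. Arrdc3, an alpha-arrestin that FOXO factors raise, measured 158, 51.9, 84.8 and 140.4 CPM in control livers and 27.4, 16.2, 18.8 and 16.2 CPM in hybrid livers, a 5.44-fold fall (log2 change -2.44 ± 0.34, adjusted p = 0.00189). Grb14, which damps the insulin receptor, fell 1.65-fold (log2 change -0.72 ± 0.17, adjusted p = 0.0259, or 0.054 to 0.102 without any 1 hybrid library). Irs1, a substrate of that receptor, rose 1.77-fold (log2 change 0.83 ± 0.22, adjusted p = 0.0408, or 0.0591 to 0.142 without control 1, 2 or 4 or any 1 hybrid library). Akt1 and Gsk3b, kinases further down, had log2 changes of 0.73 ± 0.23 and 0.56 ± 0.18 (adjusted p = 0.0665 and 0.0735). Of 22 clock genes, 2 rose and 3 fell, beside the same shares of all genes. Arntl and Cry1, a clock activator and a clock repressor, rose from 7.29 ± 3.29 to 28.1 ± 3.56 CPM and from 6.90 ± 3.40 to 28.8 ± 3.28 CPM (log2 change 1.94 ± 0.30, adjusted p = 0.0032, and log2 change 2.09 ± 0.32, adjusted p = 0.00293). Nr1d1, a clock repressor, measured 109, 186, 309 and 265 CPM in control livers and 43.3, 53.2, 57.2 and 43.96 CPM in hybrid livers (log2 change -2.13 ± 0.31, adjusted p = 0.00239). Dbp, an output of the clock, measured 189, 212, 666 and 417 CPM in control livers and 71.7, 75.6, 93.7 and 87.4 CPM in hybrid livers (log2 change -2.16 ± 0.38, adjusted p = 0.00594). Both were below every control in all 4 hybrid livers. Bhlhe41, another clock repressor, fell 16.6-fold (log2 change -4.06 ± 0.55, adjusted p = 0.00154). The sources used here do not give hours of collection, so hour and treatment cannot be told apart for clock genes. For insulin signalling, 1 without hybrid 2 and 5 without control 2 were called.

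Of 27 genes of cholesterol synthesis and uptake, 2 rose and 6 fell, with a median of -0.18. Insig1, a sterol sensor and a target of SREBP factors, measured 153, 103, 205 and 132 CPM in control livers and 34.1, 38.9, 41.4 and 27.1 CPM in hybrid livers (log2 change -2.05 ± 0.25, adjusted p = 0.000964). Fdft1, the squalene synthase, fell 2.56-fold (log2 change -1.35 ± 0.24, adjusted p = 0.00656). Stard4, a carrier of cholesterol inside cells, fell 3.04-fold (log2 change -1.61 ± 0.32, adjusted p = 0.0111). The groups lay apart in all 3 genes. Pmvk, an enzyme of the mevalonate pathway, went the other way and measured 15.3, 14.7, 17.8 and 30.2 CPM in control livers and 86.3, 79.9, 99.6 and 160.4 CPM in hybrid livers, a 5.53-fold rise (log2 change 2.47 ± 0.31, adjusted p = 0.00125). For cholesterol synthesis and uptake, 5 without hybrid 4 and 8 without control 2 were called.

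Of 29 lipoprotein and reverse cholesterol transport genes, 2 rose and 2 fell, beside 4.77% and 4.83% of all genes, with a median of -0.33. Without control 2 the numbers were 2 and 7, beside 6.75% and 8% of all genes. Lipg, the endothelial lipase, rose from 20.2 ± 5.49 to 48.1 ± 3.91 CPM and Lipc, the hepatic lipase, fell from 159 ± 63.2 to 63.9 ± 6.70 CPM (log2 change 1.27 ± 0.22, adjusted p = 0.00502, and log2 change -1.29 ± 0.27, adjusted p = 0.0134, or 0.0511 without hybrid 4). Apom, an apolipoprotein of HDL, rose 2.04-fold (log2 change 1.03 ± 0.29, adjusted p = 0.0487, or 0.0615 to 0.137 without control 1 or 4 or any 1 hybrid library). Of 27 bile acid genes, 1 rose and 9 fell, with a median of -0.72. Cyp7a1, which sets the rate of bile acid production, was the one that rose, at 114, 85.8, 72.5 and 109 CPM in control livers and 242, 223, 209 and 125 CPM in hybrid livers (log2 change 1.08 ± 0.25, adjusted p = 0.0221, or 0.051 to 0.0742 without control 3 or 4 or hybrid 1, 2 or 3). Nr0b2, the corepressor SHP that holds Cyp7a1 down, measured 62.2, 39.6, 71.4 and 108 CPM in control livers and 13.5, 3.78, 23.2 and 14.6 CPM in hybrid livers (log2 change -2.34 ± 0.47, adjusted p = 0.012). Abcc3, an export pump for bile acid conjugates, measured 138, 80.8, 162 and 225 CPM in control livers and 22.8, 18.2, 17.2 and 17.5 CPM in hybrid livers, a 7.93-fold fall (log2 change -2.99 ± 0.30, adjusted p = 0.000315). These 3 genes were apart from control in every liver. Scp2 and Acox2, which act on the side chain of bile acids in peroxisomes, fell 3.22-fold and 2.68-fold (log2 change -1.69 ± 0.29, adjusted p = 0.00506, and log2 change -1.42 ± 0.25, adjusted p = 0.00562). Nr1h4, the bile acid receptor FXR, measured 474, 118, 179.8 and 197 CPM in control livers and 129, 136, 139 and 149.6 CPM in hybrid livers (log2 change -0.78 ± 0.36, adjusted p = 0.199). Without control 2, 15 bile acid genes were lower, beside 8% of all genes. For lipoprotein genes, 1 without hybrid 4 and 9 without control 2 were called, and for bile acid genes, 4 without hybrid 1 and 16 without control 2.

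Of 34 genes of fatty acid and triglyceride synthesis, 3 rose and 4 fell, beside 4.77% and 4.83% of all genes, with a median of -0.12. Srebf1, the factor that drives lipogenesis, measured 808, 370, 1346 and 1324 CPM in control livers and 319, 155, 321 and 202 CPM in hybrid livers (log2 change -1.93 ± 0.41, adjusted p = 0.0149, or 0.0527 to 0.0547 without hybrid 2 or 4). Gpam, the first enzyme of triglyceride assembly, measured 464, 172, 237 and 324 CPM in control livers and 91.1, 96.2, 112 and 60.1 CPM in hybrid livers (log2 change -1.72 ± 0.31, adjusted p = 0.00695). The groups lay apart for both. Elovl3, a fatty acid elongase, fell 9.75-fold (log2 change -3.28 ± 0.43, adjusted p = 0.00141). G6pdx, which makes NADPH, rose 3.24-fold (log2 change 1.70 ± 0.33, adjusted p = 0.00982). Of 25 lipid droplet and lipolysis genes, 4 rose and 4 fell. Plin4, a coat protein of lipid droplets, measured 4.49, 7.33, 8.13 and 13.6 CPM in control livers and 51.4, 22.6, 56.97 and 52.9 CPM in hybrid livers (log2 change 2.47 ± 0.38, adjusted p = 0.00303). Plin5, another, measured 16.5, 20.8, 24.9 and 20.7 CPM in control livers and 89.7, 57.7, 76.04 and 60.4 CPM in hybrid livers (log2 change 1.79 ± 0.22, adjusted p = 0.000986). Neither had a hybrid liver in the control range. G0s2, which inhibits the main lipase of droplets, rose 2.26-fold (log2 change 1.17 ± 0.25, adjusted p = 0.0147, or 0.0608 without hybrid 3). The droplet enzymes Hsd17b13 and Hsd17b11 fell 2.90-fold and 2.19-fold (log2 change -1.54 ± 0.32, adjusted p = 0.0143, or 0.0511 to 0.0601 without hybrid 2, 3 or 4, and log2 change -1.13 ± 0.24, adjusted p = 0.0157, or 0.0569 to 0.0589 without hybrid 2, 3 or 4). For fat synthesis, 4 without hybrid 2 and 8 without control 1 were called, and for droplet genes, 2 without hybrid 3 and 10 without control 1.

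Of 39 genes of fatty acid oxidation and ketogenesis, 2 rose and 3 fell, beside 4.77% and 4.83% of all genes, with a median of -0.12. Slc22a5, the carnitine carrier, measured 12.95, 14.4, 20.9 and 12.97 CPM in control livers and 79.9, 57.2, 64.2 and 44.4 CPM in hybrid livers (log2 change 2.02 ± 0.25, adjusted p = 0.000986). Cyp4a14, a fatty acid hydroxylase that PPAR alpha raises, measured 308, 248, 441 and 304 CPM in control livers and 2307, 868, 1804 and 864 CPM in hybrid livers (log2 change 2.18 ± 0.36, adjusted p = 0.00454). Both were apart from control, and for Cyp4a14 hybrids 1 and 3 lay above hybrids 2 and 4. Acadm, the medium-chain dehydrogenase, fell 2.17-fold (log2 change -1.12 ± 0.20, adjusted p = 0.00625). Echs1, the next step of the same cycle, fell 1.87-fold (log2 change -0.90 ± 0.22, adjusted p = 0.0259, or 0.066 to 0.0897 without control 4 or any 1 hybrid library). Bdh1, which makes the ketone body beta-hydroxybutyrate, fell 1.81-fold (log2 change -0.86 ± 0.24, adjusted p = 0.0484, or 0.0518 to 0.152 without control 1, 3 or 4 or any 1 hybrid library). For fatty acid oxidation, 3 without control 4 and 11 without control 2 were called.

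Of 48 genes of drug metabolism tested, 20 fell and 3 rose, beside 4.83% and 4.77% of all genes, and their median was -1.40. This list too was written with earlier results of these data known. Adh4, an alcohol dehydrogenase, measured 389.9, 182, 305 and 198 CPM in control livers and 35.4, 42.2, 33.9 and 34.9 CPM in hybrid livers (log2 change -2.86 ± 0.27, adjusted p = 0.000229). Aox1, an aldehyde oxidase, measured 131, 98.8, 119 and 115 CPM in control livers and 25.9, 11.6, 17.5 and 11.95 CPM in hybrid livers (log2 change -2.77 ± 0.28, adjusted p = 0.000315). The control and hybrid ranges were far apart in both. Gstm6, a glutathione transferase, fell 4.41-fold (log2 change -2.14 ± 0.24, adjusted p = 0.000562). Ephx1, the microsomal epoxide hydrolase, fell 3.10-fold (log2 change -1.63 ± 0.23, adjusted p = 0.00207). Nnmt, which methylates nicotinamide, rose 8.02-fold to 542, 539, 394 and 346 CPM (log2 change 3.004 ± 0.37, adjusted p = 0.000986). Of 23 antioxidant and NRF2 target genes, 1 rose and 5 fell; Gclc, the rate-limiting enzyme of glutathione synthesis, fell 3.34-fold (log2 change -1.74 ± 0.26, adjusted p = 0.00239). Cat, the catalase, fell 2.88-fold (log2 change -1.52 ± 0.27, adjusted p = 0.00644). For drug metabolism, 13 without hybrid 2 and 33 without control 2 were called.

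Of 29 genes of the unfolded protein and integrated stress responses, 0 rose and 3 fell (edgeR, with 2 higher at an unadjusted p under 0.05 and 1 by DESeq2). Herpud1, which helps to clear misfolded proteins, measured 742, 551, 647 and 525 CPM in control livers and 179, 142, 232 and 157 CPM in hybrid livers (log2 change -1.78 ± 0.23, adjusted p = 0.00129). The chaperone genes Pdia4 and Sdf2l1 fell 2.02-fold and 1.85-fold (log2 change -1.01 ± 0.21, adjusted p = 0.014, or 0.05 to 0.0547 without hybrid 2, 3 or 4, and log2 change -0.89 ± 0.21, adjusted p = 0.025, or 0.062 to 0.099 without hybrid 1, 3 or 4). Psat1, a serine synthesis enzyme raised by ATF4, measured 0.910, 5.37, 0.490 and 0.980 CPM in control livers and 5.78, 12.1, 10.7 and 6.53 CPM in hybrid livers (log2 change 2.11 ± 0.64, adjusted p = 0.0608, and 0.0113 with lane as a block), with control 2 just below the lowest hybrid liver, and rose without control 2 (log2 change 3.41, adjusted p = 0.000575). Of 30 acute phase genes and metallothioneins, Mt1 and Mt2 rose and 0 fell (edgeR, with 2 lower at an unadjusted p under 0.05 and 1 by DESeq2). Stat3 and Socs3, of the acute phase signal, had log2 changes of 0.66 ± 0.23 and 0.57 ± 0.22 (adjusted p = 0.0947 and 0.137). For stress responses, 1 without hybrid 3 and 7 without control 2, and 6 with lane as a block (2 higher, 4 lower) were called, and for acute phase genes, 2 without control 1 and 4 without control 3.

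The counts of cell cycle and interferon genes depended on control 2. Of 29 cell cycle genes, 7 rose and 0 fell (edgeR, with 0 lower at an unadjusted p under 0.05 and 0 by DESeq2), with a median of 1.04; without control 2, 19 were higher, and without both control 2 and hybrid 4, 18. Rrm2, a subunit of the enzyme that makes DNA building blocks, measured 1.12, 2.88, 3.23 and 4.07 CPM in control livers and 12.4, 21.9, 24.5 and 16.6 CPM in hybrid livers (log2 change 2.76 ± 0.38, adjusted p = 0.00178). Ccne1, cyclin E1, measured 2.73, 4.07, 4.70 and 2.11 CPM in control livers and 7.90, 15.9, 15.1 and 10.9 CPM in hybrid livers (log2 change 1.88 ± 0.33, adjusted p = 0.00541). Top2a, the topoisomerase of dividing cells, measured 2.73, 6.42, 2.35 and 2.04 CPM in control livers and 6.54, 12.3, 10.5 and 11.95 CPM in hybrid livers (log2 change 1.59 ± 0.39, adjusted p = 0.0282, or 0.055 to 0.0819 without control 1, 3 or 4 or hybrid 2, 3 or 4). In these 3 genes every hybrid liver lay above every control. Bub1b and Aurkb, of the mitotic checkpoint and chromosome segregation, rose 2.81-fold and 4.92-fold (log2 change 1.49 ± 0.36, adjusted p = 0.0255, or 0.0501 to 0.0858 without control 3 or 4 or hybrid 2, 3 or 4, and log2 change 2.30 ± 0.56, adjusted p = 0.0279, or 0.0546 to 0.0807 without control 3 or 4 or hybrid 2, 3 or 4). Of 27 interferon response genes, 0 rose and 0 fell (edgeR, with 1 higher and 0 lower at an unadjusted p under 0.05, and 1 higher and 0 lower by DESeq2), with a median of -0.17. Without control 2, 19 were higher, beside 6.75% of all genes, and the median was 1.37. Oas3, an enzyme of the antiviral state, measured 1.23, 20.04, 3.04 and 4.98 CPM in control livers and 14.4, 11.2, 18.5 and 12.4 CPM in hybrid livers (log2 change 0.92 ± 0.66, adjusted p = 0.417; without control 2, log2 change 2.20, adjusted p = 0.00647). Its hybrid livers lay above controls 1, 3 and 4 and below control 2. Stat2, which relays interferon signals, measured 43.4, 83.6, 67.01 and 39.4 CPM in control livers and 124, 81.8, 114 and 105 CPM in hybrid livers (log2 change 0.87 ± 0.27, adjusted p = 0.0683; without control 2, log2 change 1.08, adjusted p = 0.0171). Ifit1, another antiviral gene, measured 10.1, 141, 6.86 and 3.62 CPM in control livers and 19.6, 8.94, 13.1 and 14.2 CPM in hybrid livers (log2 change -1.55 ± 0.96, adjusted p = 0.344; log2 change 1.01 without control 2), with control 2 far above all other livers. For cell cycle genes, 2 without control 4 and 19 without control 2, and 13 with lane as a block (13 higher) were called.

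**Figure D4:**
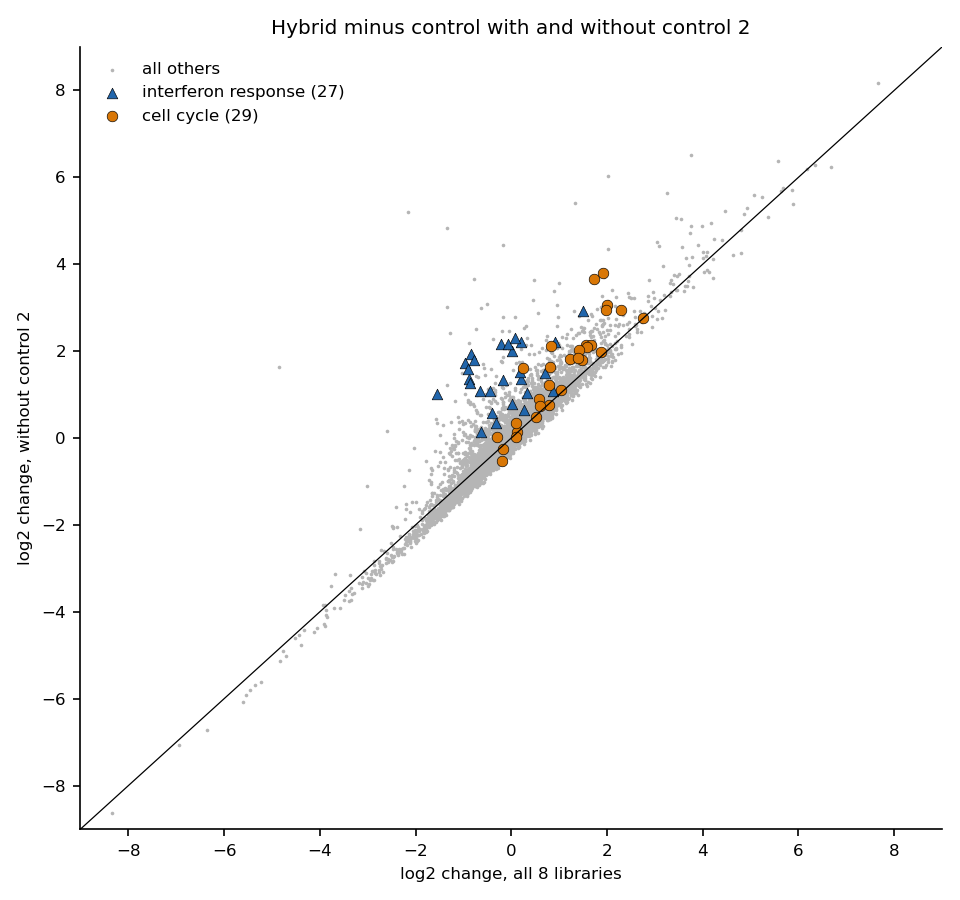
Log2 change of hybrid against control with all 8 libraries (horizontal axis) and without control 2 (vertical axis) for the genes tested in both; blue triangles are interferon response genes, orange circles are cell cycle genes and grey points are all others. The diagonal marks equal values; 27 interferon genes lie above it, with medians of -0.17 and 1.37.

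Markers of the cell types of liver were counted in the same way. In whole liver, fewer cells of a type and less RNA of that type per cell cannot be told apart. All 11 hepatocyte markers measured were detected in every library, as the label liver asks. Their summed level was 149706 to 299158 CPM in control and 89386 to 124754 CPM in hybrid; 3 fell and 0 rose (edgeR, with 0 higher at an unadjusted p under 0.05 and 0 by DESeq2). Alb, albumin, measured 226238, 133077, 143838 and 104204 CPM in control livers and 94417, 70100, 93892 and 61495 CPM in hybrid livers (log2 change -0.91 ± 0.33, adjusted p = 0.112). Ttr, transthyretin, measured 7721, 5561, 7121 and 5781 CPM in control livers and 3259, 3284, 3488 and 3275 CPM in hybrid livers (log2 change -0.96 ± 0.22, adjusted p = 0.0214, or 0.0655 to 0.0816 without any 1 hybrid library). The hybrid livers were below all controls for both. Cyp2e1, an alcohol-oxidising P450 of the pericentral zone, measured 24149, 2993, 15512 and 15191 CPM in control livers and 1740, 2285, 2775 and 3310 CPM in hybrid livers (log2 change -2.49 ± 0.52, adjusted p = 0.0138, or 0.0524 without hybrid 2), with control 2 inside the hybrid range. Of 19 periportal markers 1 rose and 4 fell, and of 18 pericentral markers 1 rose and 3 fell (7 without control 2). Asl, of the urea cycle, rose 1.81-fold (log2 change 0.86 ± 0.23, adjusted p = 0.043, or 0.0625 to 0.122 without control 2, 3 or 4 or any 1 hybrid library). Otc, of the same cycle, fell 2.41-fold (log2 change -1.27 ± 0.35, adjusted p = 0.047, or 0.0631 to 0.121 without control 1 or 4 or any 1 hybrid library). Cyp1a2 and Rgn, both pericentral, fell 5.51-fold and 3.57-fold (log2 change -2.46 ± 0.61, adjusted p = 0.0297, or 0.0574 to 0.0924 without control 3 or 4 or hybrid 2 or 3, and log2 change -1.84 ± 0.42, adjusted p = 0.0203, or 0.0546 to 0.0691 without any 1 hybrid library). Axin2, a target of Wnt signals, rose 2.22-fold (log2 change 1.15 ± 0.31, adjusted p = 0.0409, or 0.0576 to 0.127 without control 2 or any 1 hybrid library). For hepatocyte markers, 0 without hybrid 2 and 4 without control 2 were called, and for pericentral markers, 0 without hybrid 2 and 8 without control 2, and 7 with lane as a block (2 higher, 5 lower).

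Of 29 Kupffer cell and macrophage markers, 3 rose and 0 fell (edgeR, with 1 lower at an unadjusted p under 0.05 and 0 by DESeq2), and 7 were higher without control 2. Clec4f, a receptor that marks Kupffer cells, measured 83.3, 70.5, 68.97 and 74.7 CPM in control livers and 206, 176, 189 and 135 CPM in hybrid livers (log2 change 1.26 ± 0.19, adjusted p = 0.00297). Timd4 and Cd163, receptors of resident macrophages, rose 2.71-fold and 3.23-fold (log2 change 1.44 ± 0.32, adjusted p = 0.018, or 0.0501 to 0.0625 without control 4 or hybrid 1, 2 or 3, and log2 change 1.69 ± 0.39, adjusted p = 0.0222, or 0.0547 to 0.0734 without control 4 or hybrid 1, 2 or 3). All 3 were apart from control. Their list summed to 1035 to 2573 CPM in control and 1798 to 2316 CPM in hybrid, so the sums overlapped. Of 18 endothelial markers 2 rose and 0 fell (edgeR, with 0 lower at an unadjusted p under 0.05 and 0 by DESeq2): Vwf rose 3.61-fold and Lyve1 2.30-fold (log2 change 1.85 ± 0.32, adjusted p = 0.00574, and log2 change 1.20 ± 0.34, adjusted p = 0.0498, or 0.0729 to 0.14 without control 1 or 4 or any 1 hybrid library). The sum of endothelial markers was 592 to 899 CPM in control and 771 to 910 CPM in hybrid. Stellate cell and fibroblast markers (22 tested) summed to 2461 to 4144 CPM in control and 4129 to 4717 CPM in hybrid; 0 rose and 0 fell (edgeR, with 1 higher and 1 lower at an unadjusted p under 0.05, and 0 higher and 1 lower by DESeq2). Cholangiocyte markers (13 tested) summed to 260 to 536 CPM in control and 201 to 370 CPM in hybrid. Among them Prom1, which is also on the female-biased list, was 9.03-fold higher (log2 change 3.17 ± 0.62, adjusted p = 0.0104). Krt8 and Anxa4 were 2.76-fold and 1.78-fold lower (log2 change -1.47 ± 0.33, adjusted p = 0.0204, or 0.0503 to 0.0782 without control 4 or hybrid 1, 3 or 4, and log2 change -0.83 ± 0.19, adjusted p = 0.0216, or 0.0559 to 0.0946 without control 4 or any 1 hybrid library). Lymphocyte and granulocyte markers summed to 27.0 to 50.0 CPM in control and 38.2 to 58.7 CPM in hybrid; 0 rose and 0 fell (edgeR, with 0 higher and 0 lower at an unadjusted p under 0.05, and 0 higher and 0 lower by DESeq2). The part of these cells in the changes of other genes was not tested. Alas2, the heme synthesis enzyme of red cell precursors, measured 198, 147, 364 and 229.9 CPM in control livers and 40.2, 62.5, 52.4 and 47.04 CPM in hybrid livers (log2 change -2.20 ± 0.29, adjusted p = 0.0014). For macrophage markers, 1 without hybrid 1 and 7 without control 2, and 5 with lane as a block (5 higher) were called.

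Compared with glucagon alone, 2201 of 12538 genes were higher in hybrid livers (17.6%) and 1961 were lower (15.6%), 4162 in all (33.2%). The early targets of cAMP were lower in the hybrid livers: 16 of 23 passed the test, with a median difference of -1.85. Nr4a3 measured 135, 193, 169 and 137 CPM in glucagon livers and 3.81, 5.43, 5.15 and 3.17 CPM in hybrid livers (log2 change -5.16 ± 0.21, adjusted p = 2.77e-07). Ppargc1a measured 201, 190.2, 165 and 156 CPM in glucagon livers and 18.04, 25.6, 19.5 and 18.7 CPM in hybrid livers (log2 change -3.12 ± 0.15, adjusted p = 8.29e-07). Nr4a1 measured 199.9, 154, 106 and 73.3 CPM in glucagon livers and 6.92, 13.4, 5.52 and 7.19 CPM in hybrid livers (log2 change -3.996 ± 0.36, adjusted p = 2.42e-05). In all 3 the glucagon livers were many times higher, although Nr4a3 and Ppargc1a in the hybrid livers were above control. Sik1 was an exception in level, at 796, 817, 453 and 421 CPM in glucagon livers and 796, 664, 793 and 1078 CPM in hybrid livers (log2 change 0.42 ± 0.24, adjusted p = 0.195). Of 22 gluconeogenesis genes, 14 were lower, and Pck1 and Tat differed by -1.45 and -2.02 (adjusted p = 8.77e-05 and 5.47e-05). The largest differences on the lower side included Inmt, at 1746, 2040, 1909 and 1907 CPM in glucagon livers and 40.8, 28.4, 49.9 and 49.5 CPM in hybrid livers (log2 change -5.50 ± 0.21, adjusted p = 1.84e-07). Tas1r2, a sweet taste receptor, measured 45.3, 96.4, 83.3 and 85.5 CPM in glucagon livers and 2.13, 0.603, 2.62 and 1.96 CPM in hybrid livers (log2 change -5.45 ± 0.38, adjusted p = 5.44e-06). Btbd19 measured 134, 174, 160.4 and 153 CPM in glucagon livers and 5.89, 4.99, 5.88 and 6.44 CPM in hybrid livers (log2 change -4.75 ± 0.14, adjusted p = 3.36e-08). The groups did not overlap in any of these, which was a condition for naming the largest differences. On the higher side, Cyp3a16, A1bg and Cyp3a44 led, with differences of 7.69, 6.83 and 6.70. They were followed by Lcn2, an iron-binding acute phase protein (log2 change 4.93 ± 0.86, adjusted p = 0.00137), Cux2, with a difference of 4.78, Cxcl14, a chemokine (log2 change 4.21 ± 0.81, adjusted p = 0.00237), Cyp4a31, a fatty acid hydroxylase (log2 change 4.14 ± 0.30, adjusted p = 7.56e-06), and Mmp12, a macrophage protease (log2 change 3.93 ± 0.56, adjusted p = 0.000369). All 27 interferon response genes tested were higher than with glucagon, and so were 23 of 29 macrophage markers. Of 32 T3-responsive genes, 16 were higher and 5 lower.

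The hybrid was then compared with the same hormones given as separate molecules, at doses that the sources used here do not give. Of 12414 genes tested, 3 were higher and 13 lower in hybrid than in combination livers (0.0242% and 0.105%; 0.129% in either direction). The 3 higher genes were Slc25a25, Pde10a and Tuba8. Slc25a25, a mitochondrial ATP-magnesium carrier, measured 102, 108, 119 and 112 CPM in combination livers and 291, 278, 311 and 342 CPM in hybrid livers (log2 change 1.47 ± 0.12, adjusted p = 0.000287). Pde10a measured 14.9, 8.23, 5.02 and 11.03 CPM in combination livers and 28.6, 51.1, 27.1 and 49.9 CPM in hybrid livers (log2 change 1.995 ± 0.31, adjusted p = 0.0368, or 0.0513 to 0.125 without combination 2, 3 or 4 or any 1 hybrid library). The groups were apart in both, and Tuba8, a tubulin, differed by 1.33 ± 0.20 (adjusted p = 0.035, or 0.0632 to 0.115 without combination 1, 2 or 3 or hybrid 2, 3 or 4). Among the 13 lower genes, Arrdc3 measured 97.4, 108, 146 and 103 CPM in combination livers and 27.4, 16.2, 18.8 and 16.2 CPM in hybrid livers (log2 change -2.52 ± 0.20, adjusted p = 0.000287). Rgs16 measured 47.7, 82.7, 133 and 43.4 CPM in combination livers and 8.23, 0.768, 0.995 and 1.68 CPM in hybrid livers (log2 change -4.63 ± 0.65, adjusted p = 0.0242, or 0.0528 to 0.0897 without combination 3 or hybrid 2, 3 or 4). No hybrid liver reached the combination range in either gene. Gprin3 differed by -1.63 ± 0.17 (adjusted p = 0.00248) and Cited2, a coregulator, by -1.05 ± 0.11 (adjusted p = 0.00248). Foxq1, a transcription factor, differed by -1.71 ± 0.26 (adjusted p = 0.0368, or 0.0909 to 0.137 without combination 3 or hybrid 1, 2 or 3, and 0.0567 with lane as a block). Camkk1, a calcium-dependent kinase, differed by -1.73 ± 0.27 (adjusted p = 0.0368, or 0.0632 to 0.131 without combination 2, 3 or 4 or any 1 hybrid library, and 0.0693 with lane as a block). For Fzd8, a Wnt receptor, the difference was -1.30 ± 0.17 (adjusted p = 0.0213, or 0.05 to 0.0897 without combination 1 or 4 or hybrid 1, 2 or 3). For Aatk, a kinase, it was -1.27 ± 0.21 (adjusted p = 0.0429, or 0.0567 to 0.138 without any 1 of the 8 libraries, and 0.0576 with lane as a block), and for Ip6k2, an inositol phosphate kinase, -0.998 ± 0.15 (adjusted p = 0.0314, or 0.0564 to 0.126 without combination 2, 3 or 4 or any 1 hybrid library). Also lower were Hdac5, a histone deacetylase (-0.99 ± 0.16, adjusted p = 0.0368, or 0.0632 to 0.126 without combination 1, 3 or 4 or any 1 hybrid library), Aox3, an aldehyde oxidase (-0.84 ± 0.13, adjusted p = 0.0368, or 0.0695 to 0.137 without combination 1, 3 or 4 or any 1 hybrid library, and 0.0699 with lane as a block), and 8430408G22Rik (-3.18 ± 0.43, adjusted p = 0.0213, or 0.0567 to 0.0897 without hybrid 3 or 4). 8430408G22Rik is named after its values were seen and had 81.2 ± 42.0 CPM in combination and 8.92 ± 4.84 CPM in hybrid. DESeq2 called 241 genes in this comparison, and 1 edgeR fit over all 20 libraries called 4. Among those 4 were Arrdc3, Gprin3 and 8430408G22Rik (adjusted p = 0.000765, 0.0098 and 0.00646). In that fit Rgs16, Slc25a25 and Cited2 were not called (adjusted p = 0.0609, 0.0726 and 0.196). Nor were the remaining genes named here for this comparison (adjusted p = 0.103 for Ip6k2 to 0.733 for Tuba8). Leaving out 1 library gave 4 (without hybrid 3) to 16 (without combination 2) calls, with 5 without hybrid 2, 7 without hybrid 1 or combination 3, 9 without hybrid 4 and 10 without combination 4.

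**Figure D5:**
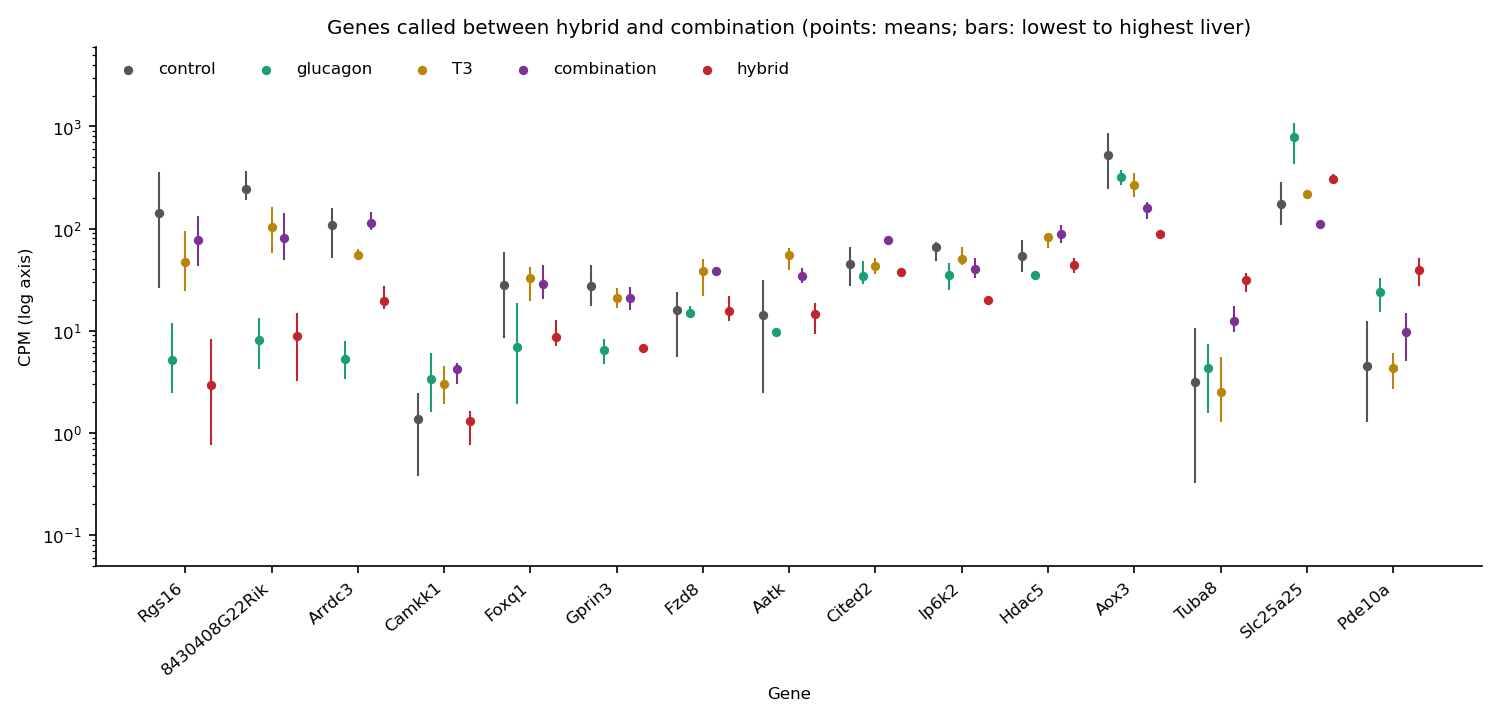
Mean CPM (log axis) in the 5 groups for 15 of the 16 genes called between hybrid and combination; bars span the lowest to the highest of 4 livers. Hybrid means (red) lie below combination means (purple) for 12 genes and above for Slc25a25, Pde10a and Tuba8.

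For genes of the glucagon and T3 sides that stood far from control, the levels in all 5 groups are set side by side. Sik1 gave 833 ± 175 CPM in hybrid, 487 ± 62.9 in combination, 622 ± 214 in glucagon, 133 ± 37.7 in T3 and 52.2 ± 22.8 in control, and the hybrid minus combination difference was 0.78 with a 95% interval from 0.41 to 1.14 and adjusted p = 0.12. Cyp17a1 gave 489 ± 193 CPM in hybrid, 564 ± 147 in combination, 38.4 ± 5.12 in glucagon, 387 ± 138 in T3 and 29.3 ± 11.6 in control, a difference of -0.21 with a 95% interval from -0.80 to 0.38 and adjusted p = 0.764. Dio1 gave 399 ± 84.4 CPM in hybrid, 473 ± 56.3 in combination, 131 ± 40.99 in glucagon, 449 ± 81.2 in T3 and 105 ± 48.7 in control, a difference of -0.24 with a 95% interval from -0.60 to 0.12 and adjusted p = 0.536. An adjusted p above the threshold does not show that levels are equal, and these intervals give the range the data allow. G6pc gave 1267 ± 152 CPM in hybrid, 685 ± 142 in combination, 2056 ± 466 in glucagon, 381 ± 33.5 in T3 and 582 ± 221 in control, a difference of 0.89 with a 95% interval from 0.52 to 1.26 and adjusted p = 0.0855. Inmt gave 42.1 ± 10.1 CPM in hybrid, 149.6 ± 100.1 in combination, 1901 ± 120.4 in glucagon, 161 ± 80.5 in T3 and 1611 ± 913 in control, a difference of -1.83 with a 95% interval from -2.65 to -1.01 and adjusted p = 0.102. The hybrid livers lay above every combination liver for Sik1 and G6pc and below every one for Inmt. DESeq2 called these 3 differences (adjusted p = 0.00127, 6.64e-05 and 0.0126) and not those of Cyp17a1 and Dio1 (0.778 and 0.545). The T3 livers ran in a lane of their own, so lane and T3 cannot be told apart and T3 levels stand beside the others without a test.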

How the data were processed

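RNA was sequenced from the livers of 20 mice, 1 library per mouse. The authors deposited 1 table of raw read counts per library, a whole number for each of 13319 gene symbols, not normalized. HTSeq and the mm10 build are named in the submitters' processing notes. RNA extraction with a Qiagen kit and library synthesis with Lexogen reagents are named in the labels' protocols. The sources used here do not give the aligner, the gene annotation, strand use, the treatment of reads shared by near-identical copies or any molecular identifiers. Without strand, overlapping and antisense genes cannot be told apart. Intervals from counts cover counting error only.

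Groups were taken from the treatment labels. The counts were tested with edgeR 4.0.16 in R 4.3.3 (limma 3.58.1): genes were kept by filterByExpr (a count of 10 at the median library size and 15 in all), scaled by TMM and tested by the quasi-likelihood F test with Benjamini-Hochberg adjustment. Each comparison was fitted on its own 8 libraries because the control livers vary more than the others. Standard errors are the log2 change divided by the square root of F, and intervals are 95% intervals from the fit. CPM levels use TMM factors over all 20 libraries. On simulated counts of 12457 genes for hybrid against control, 12.1% of 99 genes changed by 1 on the log2 scale were recovered. Of 97 genes changed by 2, 88.7% were recovered, and 3.92% of calls were false. Smaller changes thus often went uncalled there. The simulation gave both groups the same spread, unlike these livers, and changed far fewer genes than the 1208 called. Its rates may therefore differ from those in the data.

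Alternatives were RLE scaling, no filter, DESeq2 1.42.0, 1 fit over 20 libraries, lane as a replicate block and each library left out; leaving out control 2 and hybrid 4 together was chosen after seeing the data. The labels give control and hybrid libraries with the same number the same sequencing lane, so the number pairs them. The deviations of such pairs from their group means correlated across genes by 0.144, 0.148, 0.309 and -0.048. Those of the 12 pairs from different lanes correlated by -0.318 to 0.286. These few correlations overlap in range and cannot decide on a shared lane effect, which was not tested with them.

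Genes and gene lists were chosen with earlier results of these data known. The text names up to 12 called genes each with the highest and lowest change against control and up to 8 against glucagon and combination, with a mean of at least 20 CPM, no overlap and no clone-like name, up to 5 members of each list with the smallest p, and a fixed panel of glucagon and T3 genes. Some genes that this rule takes in are not reported here. Gene positions are from GENCODE M21 (GRCm38), in which 177 of 180 named genes were found, and promoters from RefSeq (GRCm38.p6). Figures were drawn with matplotlib 3.10.9.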

Additional observations from a re-analysis of the deposited data

Results flagged for a closer look

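In 33 of 360 groups of 4 libraries (9.17%), over the control and hybrid levels of the genes named in the report, the highest or lowest library lay so far from the nearest other that the gap, as a share of the whole range of the group, was above Dixon's 95% critical value for 4 samples. Normally distributed values would give about 1 in 20 such groups. CPM values need not be normally distributed, so the share found is no measure of an excess over chance. The values below are CPM, each followed by the range of the other 3 libraries of its group. The genes were not chosen independently of each other, and no cause was tested.

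Control 2 was high for 10 genes, more often than any other library: Pde10a 12.5 (1.27 to 2.49), Tuba8 10.5 (0.321 to 0.905), Fgf21 48.5 (1.02 to 6.96), Ifit1 141 (3.62 to 10.1), Igfbp1 344 (26.6 to 46.9), Prom1 4.07 (0.784 to 1.28), Psat1 5.37 (0.490 to 0.980), Top2a 6.42 (2.04 to 2.73), Btbd19 11.3 (4.12 to 5.19) and Cyp4a31 8.34 (1.07 to 2.19). Control 1 was high for 4 genes: Acadm 68.96 (46.8 to 48.7), Lepr 8.77 (3.33 to 4.22), Otc 850.3 (344 to 363) and Sucnr1 226 (19.5 to 46.2). The low value of control 3 was that of Anxa4 42.9 (63.5 to 66.4). Control 4 was high for Cd5l 138 (68.2 to 80.1) and Cyp3a44 2.49 (0.623 to 0.910). Among hybrid livers, hybrid 1 was high for Rgs16 8.23 (0.768 to 1.68), Atp5o 153 (132 to 135) and Hsd17b6 45.3 (4.72 to 11.2). Hybrid 2 was high for Krt8 20.1 (12.4 to 13.7), Lyve1 30.5 (19.6 to 21.5) and Serpina7 9.71 (2.07 to 3.36). It was low for Adcy4 7.02 (9.75 to 10.2) and Plin4 22.6 (51.4 to 56.97). Hybrid 3 was high for Irs1 91.8 (68.8 to 72.4), Nr4a2 7.14 (5.23 to 5.41) and Ttr 3488 (3259 to 3284). Hybrid 4 was high for Foxq1 12.6 (7.07 to 7.85), Ndufa8 209.9 (177 to 181) and Serpina4-ps1 4.57 (0.181 to 0.494). It was low for Cat 1044 (1585 to 1670) and Otc 107 (213 to 232).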

How the results depend on the processing

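Of the 1208 genes called between hybrid and control, 1207 were also among the 1969 (874 higher and 1095 lower) of DESeq2 and 1206 among the 3144 (1440 higher and 1704 lower) of 1 fit over all 20 libraries, in which the 5 groups share 1 estimate of the spread. RLE size factors in place of TMM gave 1175 calls, no low-count filter 1181, lane as a replicate block 1423 (756 higher and 667 lower), and leaving out control 2 and hybrid 4 together 1144. Leaving out 1 library gave 516 to 1856 calls, fewest without hybrid 3 and most without control 2. RLE scaling moved the higher share of calls from 49.7% to 44.8% and the median change of all genes from -0.02 to -0.06. Against glucagon, every alternative gave 3255 to 4349 calls (leaving out 1 library, 3446 to 3910). Against combination, DESeq2 gave 241 (73 higher and 168 lower), the fit over all 20 libraries 4, the lane block 18 and leaving out 1 library 4 to 16. List members called against control numbered 177 (83 higher and 94 lower), 313 in the fit over all 20 libraries and 103 to 269 with 1 library left out. With lane as a replicate block, 7 of 199 gene results lost and 8 gained a call, each given beside the gene; the block changed no other call of a named gene. Directions turned for 4 genes that were not called. Ifit1 went to 0.28 with the lane block, 1.002 without control 2 and hybrid 4, and from -1.94 to 1.01 with 1 library left out, turning only without control 2. Igfbp1 went to 0.10 and 0.99 in those fits and from -1.18 to 0.84 with 1 library left out, again turning only without control 2. Thrsp went to 0.059 with the block and from -0.94 to 0.23 with 1 library left out, turning without control 1, and Klf9 from -0.26 to 0.029, turning without control 3. Depth limits the ratios of A1bg and Cyp4a12a, which had at most 5 counts in any library of their lower group. The cause of these shifts was not tested, except that fits without a library hold fewer samples.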

Other observations

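A few genes of the marker lists remain to be described. Pigr, the receptor that carries antibodies into bile, measured 2072, 838, 1373 and 1223 CPM in control livers and 589, 482, 489 and 316 CPM in hybrid livers (log2 change -1.53 ± 0.30, adjusted p = 0.0106), with every hybrid liver below every control. Serpina1e, a copy of the alpha-1-antitrypsin gene family, measured 1471, 509, 1070 and 164 CPM in control livers and 17.4, 115, 48.1 and 236 CPM in hybrid livers (log2 change -2.92 ± 0.80, adjusted p = 0.0441, or 0.0726 to 0.132 without control 1 or 3 or hybrid 1, 2 or 3, and 0.0974 with lane as a block). Its groups overlapped, since control 4 lay below hybrid 4. The copies of this family are nearly alike, and how shared reads were counted is not given in the sources used here. Marco, a scavenger receptor of macrophages, measured 6.58, 10.4, 8.23 and 2.41 CPM in control livers and 30.1, 17.6, 11.7 and 16.1 CPM in hybrid livers (log2 change 1.46 ± 0.42, adjusted p = 0.0529, and 0.0396 with lane as a block), and it rose without control 2 (log2 change 1.71, adjusted p = 0.024). Cd5l, a protein secreted by macrophages, measured 76.6, 80.1, 68.2 and 138 CPM in control livers and 186, 162, 163 and 138 CPM in hybrid livers (log2 change 0.85 ± 0.25, adjusted p = 0.0552), and only the highest control came near the lowest hybrid liver. Cela1, an elastase, measured 71.6, 30.7, 46.1 and 24.8 CPM in control livers and 65.3, 82.9, 131 and 96.2 CPM in hybrid livers (log2 change 1.13 ± 0.33, adjusted p = 0.0549, and 0.0451 with lane as a block). Reln, the reelin gene of stellate cells, measured 96.1, 69.8, 49.4 and 73.5 CPM in control livers and 44.4, 43.1, 45.03 and 43.8 CPM in hybrid livers (log2 change -0.70 ± 0.21, adjusted p = 0.06). The hybrid livers were close together for Reln and all lay below the controls.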
